A study of Mus musculus with 9 samples.

Results

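The BET (bromodomain and extra-terminal) genes Brdt, Brd2 and Brd3 were followed through 9 testes at 3 weeks of age. They were taken by gene symbol from a table of 22337 genes, in which each of the 3 symbols names 1 row. The samples were 3 from wild-type mice (labelled WT-WT) and 3 from heterozygous knock-in mice (WT-KI, Piwil4 WT/R264W). A further 3 were from homozygous knock-in mice (KI-KI, genotype Piwil4 R264W/R264W). The R264W knock-in, made with CRISPR-Cas9 in C57BL/6 zygotes, replaces an arginine by a tryptophan in the germ-cell PIWI protein PIWIL4. The mRNA of whole testes was sequenced, so each value is a mixture of germ cells and somatic cells, and fewer cells of a type cannot be told apart from less RNA per cell. The labels do not say whether the 3 samples of a genotype came from separate mice or litters, or were pools. The p-values therefore measure only the spread between these samples.

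BET proteins carry a pair of bromodomains, which bind acetylated lysines on histone tails, and an extra-terminal domain that recruits partner proteins. They help RNA polymerase II to pass from pausing into elongation, in part through the kinase complex P-TEFb. BRDT is the member restricted to male germ cells: it is needed for the gene expression program of meiotic spermatocytes, and its first bromodomain is needed for the chromatin compaction of spermatids. BRD2 and BRD3 are made in many tissues. At 3 weeks of age the first wave of spermatogenesis is reaching the round spermatid stage, and individual testes differ in how far the wave has come.

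The promoters of the genes are shown because Brd2 and Brd3 rose together along that wave in the tests below and Brdt did not pass the test. A difference in slope between Brdt and either paralog was not shown in those tests. Each sequence is the 250 bases before a transcription start in RefSeq (GRCm38.p6), read 5′ to 3′ on the strand of the gene. Capitals mark matches, on either strand, to any of 6 motifs, namely MYB-type sites (CAACTG or else CAACGG or else TAACTG or else TAACGG), the E-box CACGTG, the CCAAT box, the cAMP response element half-site TGACGT, the motif CNCCTCAG bound by STRA8 and MEIOSIN at meiotic entry, and the GC box GGGCGG. The Brdt window lies at chr5:107330944-107331193 on the plus strand, the Brd2 window at chr17:34122608-34122857 and the Brd3 window at chr2:27475399-27475648, both on the minus strand. Brd2 has 3 starts in RefSeq, of which the outermost is printed, and the counts per gene do not tell them apart.
Brdt: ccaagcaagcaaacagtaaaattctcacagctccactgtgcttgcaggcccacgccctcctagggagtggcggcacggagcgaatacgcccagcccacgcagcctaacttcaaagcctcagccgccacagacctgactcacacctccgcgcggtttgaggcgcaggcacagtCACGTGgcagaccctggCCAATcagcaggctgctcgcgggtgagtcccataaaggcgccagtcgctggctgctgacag
Brd2: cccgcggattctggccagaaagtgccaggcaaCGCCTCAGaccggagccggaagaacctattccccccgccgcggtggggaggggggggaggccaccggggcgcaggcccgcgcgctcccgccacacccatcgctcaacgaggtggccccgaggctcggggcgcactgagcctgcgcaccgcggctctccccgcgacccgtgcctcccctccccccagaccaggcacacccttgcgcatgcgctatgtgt
Brd3: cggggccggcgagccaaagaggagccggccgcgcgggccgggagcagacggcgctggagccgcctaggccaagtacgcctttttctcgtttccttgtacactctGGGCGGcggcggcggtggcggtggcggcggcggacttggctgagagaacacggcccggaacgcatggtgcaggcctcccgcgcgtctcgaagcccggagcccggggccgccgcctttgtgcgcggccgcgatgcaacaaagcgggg
The Brdt window held the E-box, which 6.0% of 32851 RefSeq promoter windows of this length hold, 78 bases before the start, and a CCAAT box (33.8% of windows) 61 bases before it. The printed Brd2 window held 1 match to CNCCTCAG (6.4% of windows), and the Brd3 window held 1 GC box (32.7% of windows). At the other Brd2 starts, the window of 65.2% GC content held 1 GC box, and neither window matched CNCCTCAG. MYB-type sites (23.7% of windows) and the cAMP half-site (6.5%) were not matched in any of the 3. The Brdt window had a GC content of 62.4% with 16 CpG dinucleotides and the Brd3 window 73.2% with 37, beside medians of 52.4% and 6 over all windows. The printed Brd2 window had 73.6% with 27, and the windows of the other Brd2 starts had 65.2% with 12 and 56.4% with 18. All of these windows were richer in CpG than the median window, and whether Brd2 lay above or below Brdt depended on the start. A match is a run of letters and does not show that a factor was bound.

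All 3 genes were strongly expressed. Levels between genes are compared in FPKM, the value per kilobase of transcript that the authors computed. Brdt had 148, 120.3 and 129 FPKM in the wild-type testes, 125, 128 and 125 FPKM in the heterozygotes and 136, 133 and 132 FPKM in the homozygous testes. The values sat close together apart from the high wild-type replicate 1. Brd2 had 187, 172 and 162 FPKM in wild-type, 177, 179 and 151 FPKM in heterozygous and 175, 171 and 190.4 FPKM in homozygous testes. Brd3 had 80.9, 70.8 and 58.0 FPKM in wild-type, 67.8, 71.2 and 57.4 FPKM in heterozygous and 65.2, 68.8 and 78.5 FPKM in homozygous testes. For both paralogs wild-type replicate 3 and heterozygous replicate 3 were the lowest of their genotypes, and wild-type replicate 1 and homozygous replicate 3 were the highest of all.

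The order of the levels was Brd2, Brdt, Brd3, and no neighbours in that order overlapped. The lowest Brd2 value (151 FPKM) lay above the highest Brdt value (148 FPKM), and the lowest Brdt value (120.3 FPKM) lay above the highest Brd3 value (80.9 FPKM). Over the 9 testes the means were 174 ± 12.0 FPKM for Brd2, 131 ± 8.08 FPKM for Brdt and 68.7 ± 7.99 FPKM for Brd3 (SD, n = 9 each). A paralog made in many tissues was thus measured above the testis-specific gene in each testis, by a ratio of Brd2 to Brdt FPKM that ran from 1.21 to 1.44. Of the summed FPKM of the 3 genes, Brdt made up 32.9% to 37.5%, Brd2 44.9% to 47.8% and Brd3 16.6% to 19.6%. The FPKM values rest on the transcript models the authors used, and an error in the length of a model would shift every testis alike. Levels between testes are compared below in CPM, counts scaled to library size by TMM. The coefficient of variation over the 9 testes in CPM was 6.84% for Brdt, 9.83% for Brd2 and 10.7% for Brd3, beside a median of 14.3% over 15771 tested genes. Of those genes, 11.8% varied less than Brdt, 28.8% less than Brd2 and 33.7% less than Brd3. In mean CPM, Brdt lay above 97.5% of those genes, Brd2 above 98.7% and Brd3 above 93.2%. The ranks of spread were not matched for level, so they do not show that these genes were unusually steady. In FPKM the coefficients were 6.18% for Brdt, 6.93% for Brd2 and 11.6% for Brd3, so Brdt and Brd2 lay closer together in that unit. With 3144 to 13140 counts per gene and testis, counting error was at most 1.78% of a value, and the spread between testes is larger than that.

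**Figure D1:**
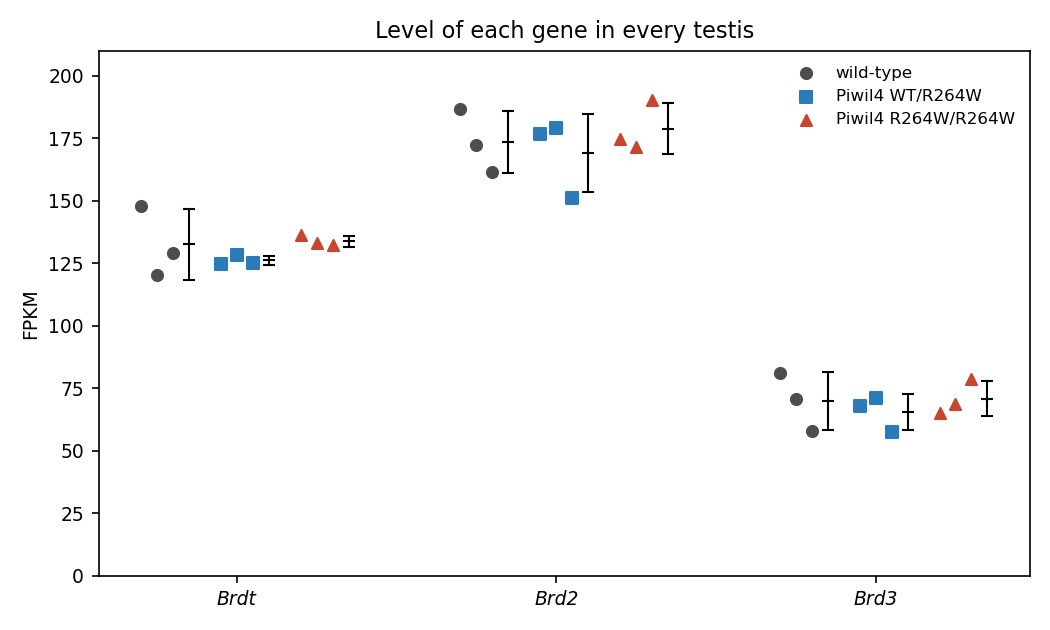
FPKM (fragments per kilobase of transcript, scaled to depth) of Brdt, Brd2 and Brd3 in each of the 9 testes, by genotype, with the mean and SD of the 3 testes beside the points. Brd2 lies between 151 and 190.4, Brdt between 120.3 and 148 and Brd3 between 57.4 and 80.9, and the genotypes overlap for each gene apart from Brdt in both knock-in genotypes.

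Between genotypes none of the 3 genes passed the test. Each comparison was tested with the quasi-likelihood test of edgeR over all genes, which called 0% of them at an adjusted p under 0.05 in each comparison, 0 of 15543, 0 of 15463 and 0 of 15413. At an unadjusted p under 0.05 it called 1.26%, 2.22% and 1.11% of them, while DESeq2 had 2, 6 and 0 genes at an adjusted p under 0.05. None of the 3 genes was called by either limit. In homozygous against wild-type testes the fold change of Brdt was 0.991 (95% interval 0.843 to 1.16, unadjusted p = 0.894 from edgeR). For Brd2 it was 1.03 (0.842 to 1.25) and for Brd3 1.001 (0.812 to 1.23). The intervals hold changes from 0.812-fold to 1.25-fold and no 2-fold change. On the log2 scale the values were -0.013, 0.036 and 0.0018, beside a median of -0.0050 over all genes tested.
In CPM, Brdt averaged 378 ± 42.5 in wild-type, 352 ± 7.95 in heterozygous and 375 ± 8.18 in homozygous testes (SD, n = 3 each). The spread of the wild-type group came from replicate 1, with 426 CPM against 347 and 359 CPM. Between both knock-in genotypes the Brdt values did not overlap. The homozygous testes had 369, 371 and 384 CPM and the heterozygous testes 344, 360.0 and 351 CPM. The groups did not overlap in 7.06% of the genes tested in that comparison, so such a pattern was common. The fold change was 1.07 (95% interval 0.962 to 1.18, adjusted p = 0.948 from edgeR), and the exact two-sided permutation test gave p = 0.1, the smallest that 3 against 3 allow. Wild-type testes, from 347 to 426 CPM, overlapped with both groups.
Brd2 averaged 546 ± 61.6, 527 ± 62.9 and 561 ± 53.2 CPM and Brd3 204 ± 29.7, 187 ± 19.7 and 205 ± 16.1 CPM in that order of genotypes (SD, n = 3 each). Both genes overlapped between the genotypes in all 3 comparisons, as did Brdt in both comparisons with wild-type testes, where 5.58% (homozygous) and 5.36% (heterozygous) of genes did not overlap. Against heterozygous testes the fold changes in homozygous testes were 1.07 (95% interval 0.877 to 1.297) for Brd2 and 1.09 (0.922 to 1.299) for Brd3. In heterozygous against wild-type testes they were 0.927 (0.785 to 1.09) for Brdt, 0.959 (0.775 to 1.19) for Brd2 and 0.913 (0.731 to 1.14) for Brd3. The comparisons share libraries, so their values are not independent of each other. Piwil4 itself had 18 to 46 counts in the 9 libraries, and a count per gene cannot tell its alleles apart.

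**Figure D2:**
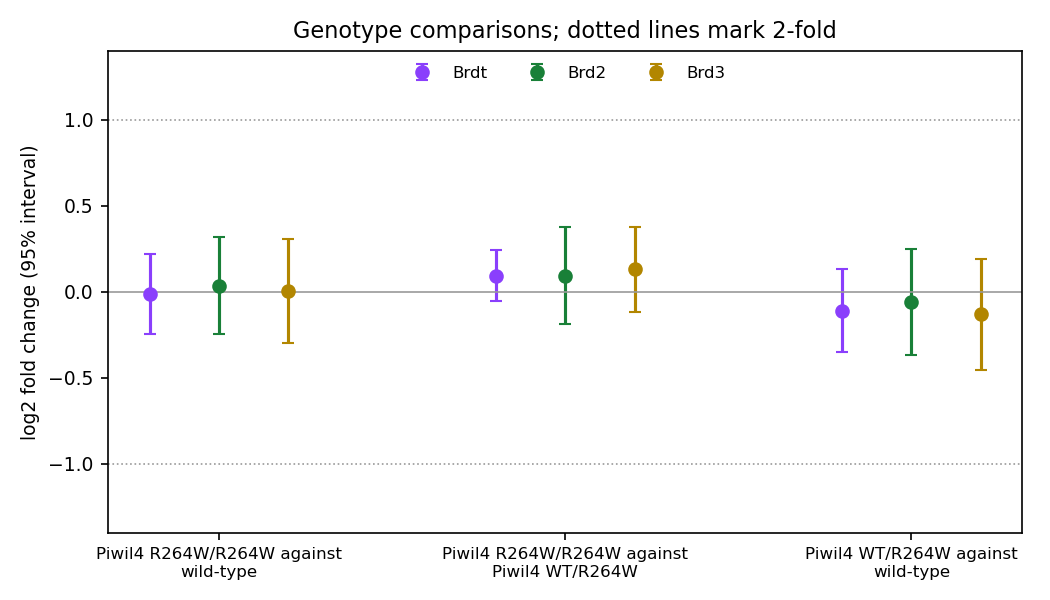
Log2 fold change of Brdt, Brd2 and Brd3 in the 3 genotype comparisons, with 95% intervals from edgeR; dotted lines mark a 2-fold change. The 9 points lie between -0.13 and 0.13, and each interval includes 0 and stays within the dotted lines.

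Brd2 and Brd3 rose with the stage of the first wave. Stage was measured by a score that averages the log2 CPM of 15 round spermatid genes, none of which is a BET gene. The score was lowest in heterozygous replicate 3 (2.53), followed by wild-type replicates 3 (3.11) and 2 (3.93), homozygous replicates 1 (3.97) and 2 (4.74), heterozygous replicates 2 (4.87) and 1 (5.47), homozygous replicate 3 (6.13) and wild-type replicate 1 (6.29). Each genotype thus held less and more advanced testes, but stage was not balanced, as the homozygous testes held ranks 4, 5 and 8. The widest gap between neighbours, 0.82, was 21.8% of the range. Across the testes in this order Brd2 had 454, 486, 543, 527, 533, 567, 559, 622 and 610 CPM. It rose by a factor of 1.37 from its lowest to its highest testis. In the same order Brd3 had 165, 172, 209, 199, 193, 203, 194, 223 and 231 CPM, with both of its lowest values in the least advanced and both of its highest in the most advanced testes. Brdt had 351, 359, 347, 369, 371, 360.0, 344, 384 and 426 CPM. It stayed between 344 and 371 CPM in the 7 less advanced testes and was higher only in the last 2 of the order. That pattern depended on the scaling, as these 2 testes had the lowest TMM factors (0.954 and 0.938). In FPKM, homozygous replicate 3 (132) lay below homozygous replicates 1 (136) and 2 (133), and wild-type replicate 1 (148) alone was set apart.
With genotype as a term and all 9 libraries in one edgeR fit, Brd2 rose by 0.11 on the log2 scale per unit of the score (standard error 0.022, adjusted p = 0.00244), a factor of 1.08 for each doubling of the round spermatid genes. Brd3 rose by 0.10 (standard error 0.026, adjusted p = 0.00882), a factor of 1.07. The slope of Brdt was 0.044 (standard error 0.024, adjusted p = 0.182, 95% interval -0.0076 to 0.096), which did not pass the test. Among the 15771 genes tested with edgeR, 29% passed an adjusted p under 0.05, 18.6% with a rise and 10.4% with a fall, and the median slope was -0.017. A rise with stage was therefore not particular to Brd2 and Brd3, which stood at the percentiles 78.4 and 77.8 of all slopes, with Brdt at 67.2. On log2 FPKM values with limma the slopes were 0.071 for Brd2 (adjusted p = 0.0188), 0.12 for Brd3 (adjusted p = 0.00459) and 0.031 for Brdt (adjusted p = 0.338). In that fit, which differs in unit, filter and test, 2209 genes rose and 2856 fell, against 2934 and 1644 with edgeR on TMM-scaled counts, and the 3 genes had positive slopes in both. With DESeq2 size factors in edgeR, which changes the scaling alone, 3065 rose and 1324 fell. Brd3 was no longer past the threshold without wild-type replicate 1 (adjusted p = 0.0609 from edgeR), wild-type replicate 3 (0.0695) or heterozygous replicate 3 (0.0652), with slopes of 0.10, 0.081 and 0.098. Without the 2 testes of the highest score neither paralog passed it (Brd2 0.11, adjusted p = 0.101; Brd3 0.10, adjusted p = 0.243, both from edgeR). Without wild-type replicate 1 the slope of Brdt was 0.0066 (adjusted p = 0.902).
Across the 9 testes Pearson's r with the score was 0.958 for Brd2 (exact permutation p = 0.000118, adjusted over the 3 genes 0.000355), 0.860 for Brd3 (exact p = 0.00367, adjusted 0.00551) and 0.620 for Brdt (exact p = 0.0664, adjusted 0.0664). Spearman's rho was 0.917 (exact p = 0.00131, adjusted 0.00394), 0.750 (exact p = 0.0255, adjusted 0.0382) and 0.550 (exact p = 0.133, adjusted 0.133) for Brd2, Brd3 and Brdt. Without the 2 testes farthest from the median score, heterozygous replicate 3 and wild-type replicate 3, r was 0.898 for Brd2, 0.620 for Brd3 and 0.640 for Brdt. The relation of Brd3 was then much looser. Within each genotype the slope of Brd2 was positive, at 0.095 in wild-type, 0.11 in heterozygous and 0.12 in homozygous testes, and so was that of Brd3, at 0.12, 0.092 and 0.087. The slope of Brdt was 0.088 in wild-type testes, -0.0021 in heterozygous and 0.028 in homozygous testes. With 3 testes each these are descriptions.

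**Figure D3:**
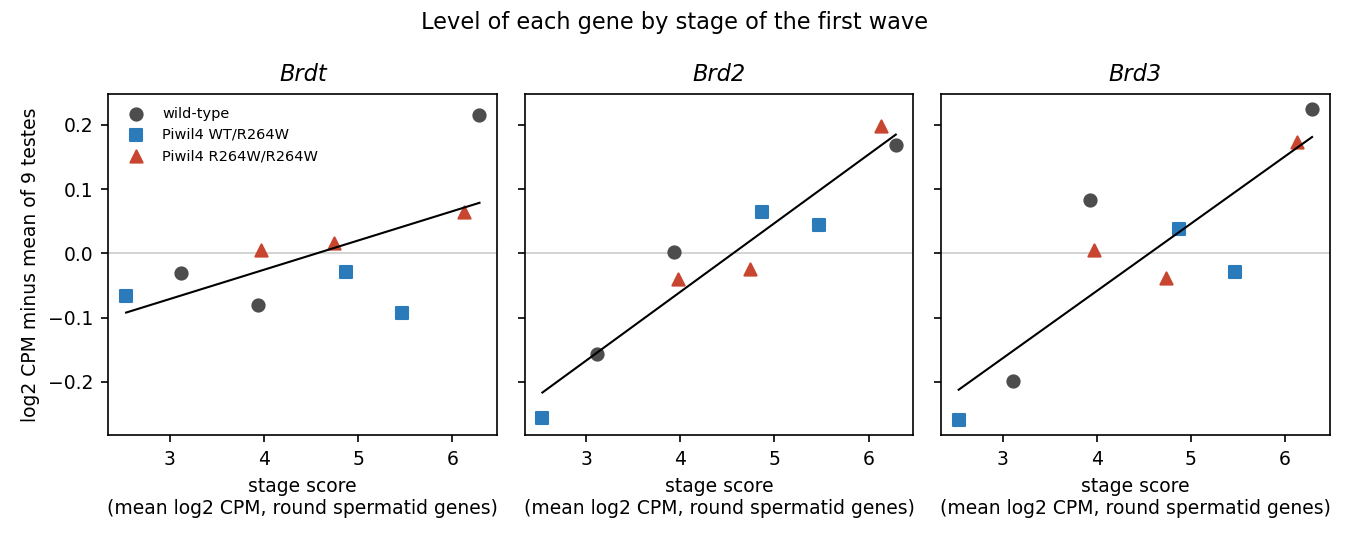
Log2 CPM of Brdt, Brd2 and Brd3, each minus its mean over the 9 testes, against the stage score (the average log2 CPM over 15 genes of round spermatids), with 1 point per testis, symbols by genotype and a least-squares line. Brd2 and Brd3 climb along the score (r = 0.958 and 0.860), while Brdt has its 2 highest values in the 2 testes of the highest score and no order before them (r = 0.620). In FPKM, homozygous replicate 3 was not among the 2 highest Brdt values.

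Whether the paralogs differed from Brdt was tested on ratios of counts within a library, which do not depend on scaling. This test was chosen after the values were seen. The log2 ratio of Brd2 to Brdt ran from 0.37 to 0.70 and had an r of 0.675 with the score (exact permutation p = 0.0494, adjusted over 3 ratios 0.101; Spearman's rho 0.583, exact p = 0.108, adjusted 0.243). For Brd3 to Brdt r was 0.636 (exact p = 0.0676, adjusted 0.101; rho 0.517, exact p = 0.162, adjusted 0.243), and for Brd3 to Brd2 it was -0.055 (exact p = 0.886, adjusted 0.886; rho -0.10, exact p = 0.810, adjusted 0.810). Without heterozygous replicate 3 and wild-type replicate 3 the first of these fell to 0.195 and the next to -0.0575. A difference in slope between Brdt and either paralog was therefore not shown, although Brd2 and Brd3 passed the test of a slope and Brdt did not.

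The genes most like each BET gene over the 9 testes were taken by Pearson's r of log2 CPM. For Brdt they were Tlk2, a kinase of chromatin assembly (r = 0.982), Dnajc2 (0.961), Rhot1 (0.961), 0610010F05Rik (0.961) and Asnsd1 (0.960), whose own stage slopes lay between 0.038 and 0.060. For Brd2 they were Aldh3b1 (r = 0.995), Cfap61, a cilia and flagella gene (0.993), Penk, which encodes proenkephalin (0.992), Zan, which encodes the acrosomal protein zonadhesin (0.992), and Ubxn10 (0.992). Their stage slopes lay between 0.22 and 0.67, all steeper than that of Brd2 (0.11). For Brd3 they were Kif3b, a kinesin motor subunit (r = 0.996), Itgad (0.990), Pom121l2 (0.988), Col2a1 (0.987) and Trim24, which itself has a bromodomain (0.986). The stage slopes of the genes like Brd3 lay between 0.11 and 0.33. Of 15770 genes, 87 had an r of at least 0.9 with Brdt, 1619 with Brd2 and 748 with Brd3. Brd2 and Brd3 had an r of 0.948 with each other, and 0.585 and 0.645 with Brdt. These are descriptions over 9 shared libraries.

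Among 35 other bromodomain genes, 6 rose with the stage score, 4 fell and 25 did not pass the test, and their median slope was -0.0055 beside -0.017 for all genes and 0.10 for the 3 BET genes. Trim66, a TRIM family gene, rose most, by 0.67 on the log2 scale per unit (standard error 0.077, adjusted p = 1.59e-05 from edgeR), followed by the ATPase gene Atad2 with 0.12. Phip (-0.14) and Baz1b, a chromatin remodeling gene (-0.11), fell most among those past the threshold. The slopes of Trim24 (0.12) and of Smarca2, an ATPase of SWI/SNF remodelers (0.10), both called, were of the size of those of Brd2 and Brd3. Trim24 (as a list gene), Smarca2, Cdk9 and Larp7 were named after their values were seen.
Of 14 genes of P-TEFb, its inhibitors and the super elongation complex, 4 rose, 1 fell and 9 did not pass (median slope 0.037). Ell2, an elongation factor, rose by 0.42 (adjusted p = 3.32e-05 from edgeR) and Hexim2, an inhibitor of P-TEFb, by 0.14, and Ccnt2, a cyclin of P-TEFb, fell by 0.12. The kinase gene Cdk9 itself had a slope of -0.045 (adjusted p = 0.247), between 50.7 and 62.7 CPM in the 9 testes. Larp7, which stabilises the 7SK RNA that holds P-TEFb inactive, rose by 0.093.
Among 14 histone acetyltransferases without a bromodomain and deacetylases, 3 rose, 5 fell and 6 did not pass (median -0.055). The deacetylase gene Hdac11 rose by 0.61 and Kat8, which acetylates histone H4, by 0.16, while Kat6a and Hat1, both acetyltransferase genes, fell by 0.12 and 0.099. The 14 genes of testis histones and of the exchange of histones for protamines, of which 12 were tested, had 11 that rose, 0 that fell and a median slope of 1.37. Prm1 and Prm2, the protamines that pack sperm DNA, rose by 3.10 and 3.01 per unit, from 0.105 to 41.7 CPM for Prm1 and from 0 to 59.4 CPM for Prm2. In the genotype comparisons no gene of these 4 lists had an adjusted p under 0.05 in edgeR.

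**Figure D4:**
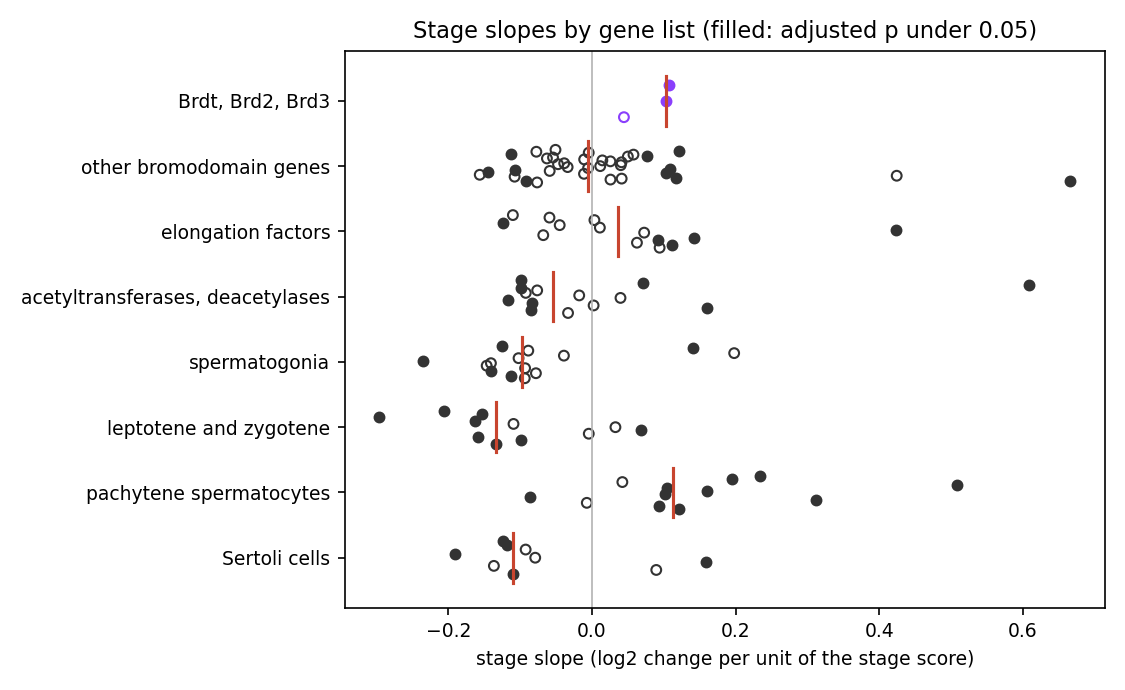
Stage slope (log2 change per unit of the stage score) of each gene, by gene list; filled points have an adjusted p under 0.05 from edgeR and vertical lines are list medians. Brd2 and Brd3 lie near 0.11 and 0.10, close to the median of the pachytene list (0.11), while the medians of the spermatogonial (-0.098), leptotene and zygotene (-0.13) and Sertoli (-0.11) lists are below 0. The Leydig list, with a median of 0.32, is among the lists not drawn.

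Markers of the cells of a testis moved with the score as well. Of 12 pachytene spermatocyte genes 9 rose and 1 fell (Mybl1, by 0.086), and the summed level ran from 7769 to 10357 CPM. Among those that rose were H1f6 by 0.51, at only 0.578 to 2.37 CPM, and the germ-cell glycolytic gene Pgk2 by 0.31, at 171 to 412 CPM. Of 11 leptotene and zygotene genes 1 rose (Stag3, 0.068) and 7 fell, with sums from 2750 to 3571 CPM. Those that fell included Mei4 (-0.30, at only 1.20 to 2.94 CPM) and Dmc1 (-0.21, at 23.3 to 52.6 CPM). Of 14 tested spermatogonial genes 1 rose (Dmrtb1, 0.14) and 4 fell, including Lin28a (-0.24) and Sohlh2 (-0.14), with sums from 870.3 to 1006 CPM. These sums were mostly Dmrtb1, at 445 to 693 CPM. They were highest in homozygous replicate 3 (1006) and wild-type replicate 1 (974), where the mean log2 CPM of the list was lowest (3.91 and 3.92). All 15 round spermatid genes, which make up the score, and all 11 elongating spermatid genes rose, and their sums ran from 417 to 1771 CPM and from 41.1 to 1206 CPM. Of 9 Sertoli cell genes 1 rose (Rhox5, 0.16) and 4 fell, including Fshr (-0.19) and Aard (-0.12, at 287 to 479 CPM), with sums from 574 to 871 CPM. Brd2 and Brd3 thus rose where the lists of later germ cells rose and where 4 of the 5 Sertoli genes past the threshold fell. Of the other somatic lists, 2 of 6 Leydig cell genes rose (Cyp17a1 by 1.01 and Cyp11a1 by 0.43, sums from 151 to 386 CPM), 1 of 5 peritubular myoid genes fell (Tagln, by 0.12, sums from 118 to 253 CPM), 1 of 6 macrophage genes rose (Csf1r, 0.14, sums from 66.8 to 89.9 CPM) and 0 of 6 endothelial genes passed the test (sums from 26.8 to 35.9 CPM, with 0 of 6 at an unadjusted p under 0.05). The median slope of the Leydig list (0.32) was above that of the pachytene list (0.11), so Brd2 and Brd3 also rose where a somatic list rose. The part of any of these cells in the levels of Brd2 and Brd3 was not tested.
In the GENCODE annotation H2-DMa overlaps Brd2 on the opposite strand, and a strand setting of the counting is not given in the sources used here, so reads of the pair cannot be told apart where they overlap. H2-DMa had 41 to 95 counts in the 9 libraries against 8641 to 13140 for Brd2. Brd3os, by its name an opposite-strand gene of Brd3, had 73 to 138 counts against 3144 to 4981 for Brd3. Whether reads of that pair overlap was not tested.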

How the data were processed

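The mRNA of 9 whole testes at 3 weeks of age was sequenced, in 1 library each. Per the labels and the paper's methods, the authors filtered reads with fastp (version 0.18.0) and assembled mapped reads with StringTie (version 1.3.1). They deposited FPKM values and estimated counts per gene. The submitters' processing notes name mm39; the aligner, annotation and counting tool are not given in the sources used here. Of the estimated counts, 89.2% were whole; they summed to 17964135 to 24279056 per library. A count of 0 leaves up to 3 counts, 0.122 to 0.171 CPM (counting error only).

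Samples were grouped by title. Estimated counts were rounded. Tests used edgeR (version 4.0.16, R version 4.3.3) with filterByExpr, TMM, the quasi-likelihood test, two-sided, and Benjamini-Hochberg adjustment over all genes, on each pair of genotypes, and on all 9 libraries with genotype and the stage score (prior count 1) as terms. Standard errors were derived from the F statistic, and 95% intervals from its degrees of freedom. Simulated counts were used to test these steps. The alternatives were DESeq2 (version 1.42.0), edgeR with DESeq2 size factors, log2(FPKM + 0.1) and log2(FPKM + 1) tested by limma (version 3.58.1) where the mean FPKM reached 0.5, no filter, at least 10 counts in every library, a replicate block, 1 fit of 9 libraries, the stage covariate, a pachytene score, no genotype term, and each library left out. The limma values in the text are on log2(FPKM + 0.1).

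The 3 genes and the lists were chosen with earlier results of these data known. Named list genes are the 2 with the largest rise and the 2 with the largest fall past the threshold, and the 5 genes of highest r per BET gene. The testis histone list shares 5 genes with the elongating spermatid list and 1 with the pachytene list. The deposited values are not tied to coordinates, and promoter coordinates are those of GRCm38.p6, not of mm39. Chi-square tests within a genotype found no pair of libraries within sampling noise (lowest chi-square per degree of freedom 7.55).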

Additional observations from a re-analysis of the deposited data

How the results depend on the processing

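For Brdt, Brd2 and Brd3 no genotype comparison had an adjusted p under 0.05 in any of 15 alternatives each. Some signs turned, at the farthest to -0.10 for Brd3 in homozygous against wild-type testes, without wild-type replicate 3. For homozygous against wild-type testes, the log2 value of Brdt (-0.013) was 0.019 with limma on log2(FPKM + 0.1) and 0.019 on log2(FPKM + 1), and with each library left out it ran from -0.058 to 0.085. That of Brd2 (0.036) was -0.015 and that of Brd3 (0.0018) was -0.043 with the stage score as a covariate, and they ran from -0.049 to 0.12 and from -0.10 to 0.10 with each library left out. Between both knock-in genotypes Brd2 (0.093) ran from -0.0026 to 0.15, the lowest without heterozygous replicate 3, and in heterozygous against wild-type testes (-0.060) from -0.14 to 0.034. With the stage score as a covariate, homozygous against heterozygous values were 0.062 for Brdt, 0.025 for Brd2 and 0.064 for Brd3. Without it they were 0.093, 0.093 and 0.13.
The adjusted p of Brd2's stage slope was under 0.05 in 18 of 19 alternatives and that of Brd3's in 15 of 19; Brdt's was under 0.05 in 0 of 19 (lowest 0.0569). With each library left out the slopes ran from 0.0066 to 0.062 for Brdt, from 0.095 to 0.12 for Brd2 and from 0.081 to 0.11 for Brd3. Without the 2 testes of the highest score, an alternative added after the data were seen, they were -0.0043, 0.11 (adjusted p = 0.101 from edgeR) and 0.10 (adjusted p = 0.243 from edgeR), where 1138 genes passed (1092 higher, 46 lower) instead of 4578 (2934 and 1644). Per unit of the pachytene score, which spans a narrower range, the slopes were 0.29, 0.71 and 0.73.
With each library left out, the genes changed with stage ran from 2543 (without wild-type replicate 1) to 6363 (without heterozygous replicate 1); they were 2826 without wild-type replicate 3 and 2955 without homozygous replicate 3. Those lower ran from 545 (without wild-type replicate 1) to 2901 (without heterozygous replicate 1), were 564, 968, 986 and 631 without wild-type replicate 3, heterozygous replicate 3, homozygous replicate 1 and homozygous replicate 3, and were 2856 and 2830 with limma at the 2 pseudocounts.
The replicate block, for numbers that do not pair the testes (2 of 9 same-number pairs had a correlation of deviations over 0.1, with a range from -0.73 to 0.78, and 4 of 18 best matches were with the own number), changed no call of the 3 genes; the stage slopes were then 0.045, 0.11 and 0.099. Genes at an unadjusted p under 0.05, in edgeR unless named, were 52 with the block (196 without) in homozygous against wild-type testes, 131 (343) against heterozygous testes and 181 (171) in heterozygous against wild-type testes. With the stage covariate they were 439, 518 and 642. The last comparison had 108 with DESeq2 and 290 with all 9 libraries in 1 fit. With each library left out they ran from 86 to 1164 (without homozygous replicate 2 and wild-type replicate 1), from 163 to 1145 (without homozygous replicate 2 and heterozygous replicate 2, with 222 and 187 without heterozygous replicate 3 and homozygous replicate 3) and from 83 (without heterozygous replicate 1) to 244. DESeq2 had 2, 6 and 0 genes at an adjusted p under 0.05. The cause of these differences was not tested.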
